A study of Rattus norvegicus with 18 samples.

Results

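Potassium channel genes were examined in rat brain through every probe set whose single gene symbol in the platform annotation starts with Kcn, with 1 probe set kept per gene, the one of highest mean over all 18 arrays. This gave 75 genes, read by 126 probe sets, among 14218 named genes on the array. The samples were total RNA of amygdala, hippocampus and cortex from rats given chronic immobilization stress and from rats that were only handled, with 3 Affymetrix arrays for each of the 6 combinations. Strain, age, sex and the length of the stress are not given in the labels, and nothing in them tells if replicate arrays stand for different animals, pools or repeats. All p-values below thus rest on array-to-array spread alone, which may be technical.

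Potassium channels let potassium leave the cell and so set the resting potential, shorten the action potential and limit repetitive firing. Voltage-gated channels are tetramers of pore subunits that take up silent modifier subunits and auxiliary subunits, which alter gating and delivery to the membrane. Calcium- and sodium-activated channels follow the firing itself, inward rectifiers carry the currents opened by inhibitory G protein-coupled receptors or by low ATP, and tandem-pore channels carry the background leak. In the hippocampus, cortex and amygdala these channels are placed in separate parts of the neuron, with Kv1 channels on axons, Kv4 channels on dendrites and Kv7 channels at the axon initial segment.

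Values are linear intensities as deposited, and each array had the same trimmed mean of 150 (2% trimmed from each end). Array medians lay between 49.1 and 56.4. Differences were tested with limma on log2 of the intensity plus 16, over the 18625 probe sets at or above the 40th percentile of mean level, and a call means a Benjamini-Hochberg adjusted p under 0.05 over those probe sets. Of the 75 genes, 42 passed this filter, with mean intensities of 32.1 to 1005. They comprised 16 of 24 voltage-gated pore subunits, 4 of 7 silent modifiers, 6 of 11 auxiliary subunits, 4 of 7 calcium- and sodium-activated channel genes, 7 of 15 inward rectifiers and 5 of 11 tandem-pore channels. The other 33 were dimmer and not tested, so the counts given here describe the 42 and not the whole family. Kcnn2 was not analysed here. Errors beside intensities are SD (n = 3 arrays) and errors beside log2 values are standard errors from limma.

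Region was taken from titles and descriptions, because 1 other field gives amygdala throughout, and it was set against marker genes. In handled arrays 4 of 5 hippocampal markers were called higher in hippocampus than in cortex and 1 lower, 7 of 9 cortical markers were called lower in hippocampus than in cortex and 2 higher, and 7 of 8 amygdala markers were called higher in amygdala than in hippocampus. Between amygdala and cortex the markers separated less, with 4 of 9 cortical markers called higher in cortex and 1 lower, and 3 of 8 amygdala markers called higher in amygdala and 1 lower. Oligodendrocyte markers differed as well, with a summed intensity of 20030 to 22610 in handled hippocampus, 15670 to 16700 in amygdala and 10770 to 11290 in cortex, and meningeal fibroblast markers with 465 to 522, 369 to 443 and 1399 to 1458 in the same order. The hexokinase control was read as the log2 difference of its 3′ and its 5′ probe set. It was 0.739 to 0.903 in handled amygdala, 0.942 to 1.152 in hippocampus and 1.010 to 1.195 in cortex. The part of these measures in the region differences given here was not tested. In pieces of tissue, fewer cells of a type and less RNA per cell cannot be told apart.

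Calls between regions were more frequent in the contrasts that include hippocampus, for these genes and for all tested probe sets alike. Between handled hippocampus and handled cortex 28 of the 42 genes were called (66.7%), 11 higher and 17 lower in hippocampus, against 25.9% of all tested probe sets (12.2% higher and 13.6% lower). Between handled amygdala and handled hippocampus 24 were called (57.1%), 12 higher and 12 lower in amygdala, against 28.4% of all (15.5% higher and 12.9% lower). Between handled amygdala and handled cortex 10 were called (23.8%), 2 higher and 8 lower in amygdala, against 14.7% of all (8.14% higher and 6.56% lower). Each of the 42 genes is read by its probe set of highest mean. All tested probe sets also include dimmer probe sets of the same genes and those without a symbol. The shares compared here and below are thus of unlike sets. With arrays centred on their medians, 39.3% of all calls in that last contrast were higher in amygdala instead of 55.4%, while the split of the potassium channel genes stayed at 2 and 8. The median log2 differences of the 42 genes were -0.30, -0.03 and -0.09 in the same order, and those of all tested probe sets were -0.01, 0.02 and 0.01. Relative to both other regions, 9 genes were called higher in hippocampus (Kcna1, Kcnab1, Kcnab2, Kcnd2, Kcng2, Kcnip2, Kcnj6, Kcnq3 and Kcnq5) and 10 were called lower (Kcna5, Kcna6, Kcnd3, Kcng3, Kcnh2, Kcnh3, Kcnip1, Kcnj16, Kcnk2 and Kcnt1). The share of all tested probe sets called in both of these contrasts was not computed. Kcna5, Kcng3 and Kcnh2 had handled hippocampus means of 20.65, 15.24 and 14.05, below the lowest mean of a tested gene, 32.1. They passed the filter only through the other regions, so their calls add no support to the counts of lower genes.

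**Figure D1:**
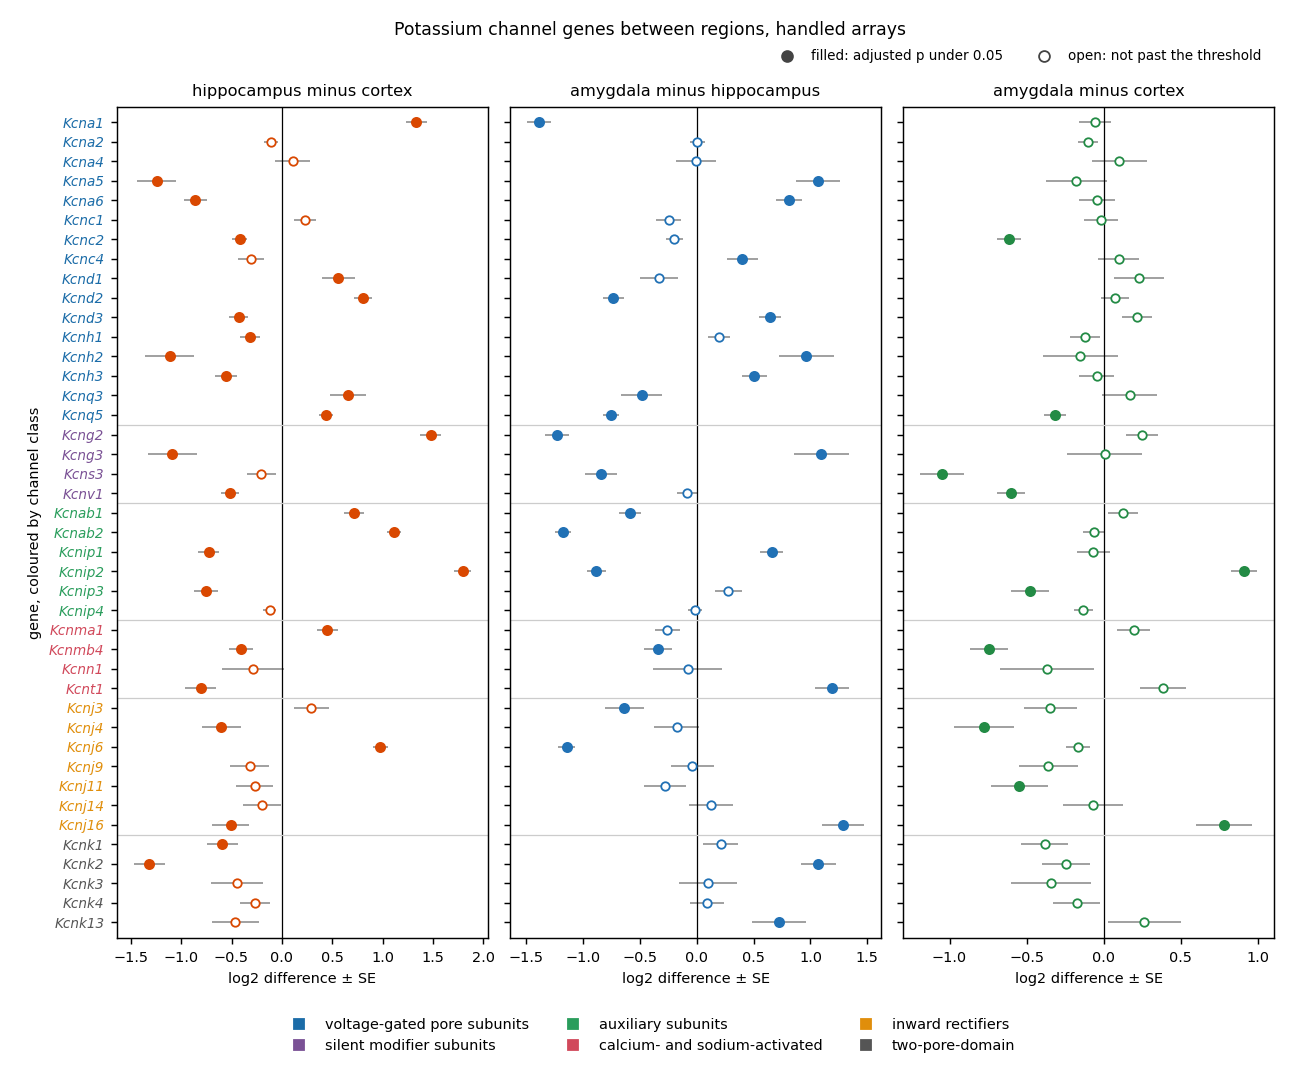
Log2 difference ± SE of the 42 tested potassium channel genes between regions of handled rats, in 3 panels, with genes in rows coloured by channel class and filled points for adjusted p under 0.05. Kcnip2 lies farthest to the right in the panel of hippocampus minus cortex, at 1.79, and the panel of amygdala minus cortex has the fewest filled points, 10.

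Among the Kv1 genes, which encode low-threshold channels of axons and their terminals, the hippocampus took both ends of the range. Kcna1, the gene of Kv1.1, had intensities of 397, 329 and 368 in the 3 handled hippocampus arrays, 138, 131 and 119 in amygdala and 133, 148 and 124 in cortex. All hippocampal arrays lay above all arrays of the other regions, and amygdala and cortex overlapped. The log2 difference from cortex was 1.33 ± 0.10 (adjusted p = 6.70e-10, limma), and amygdala minus hippocampus was -1.39 ± 0.10 (adjusted p = 3.49e-10, limma). Kcna6, the gene of Kv1.6, ran the other way, with 262, 190 and 222 in hippocampus, 404, 411 and 398 in amygdala and 419, 441 and 393 in cortex. Its hippocampal arrays were the lowest without overlap, by -0.86 ± 0.11 against cortex (adjusted p = 3.28e-06, limma). Kcna5, the gene of Kv1.5, was dim, with 21.7, 25.1 and 15.1 in hippocampus against 78.8, 58.9 and 74.4 in cortex and 55.3, 65.97 and 59.99 in amygdala, and its difference of -1.24 ± 0.20 from cortex was called (adjusted p = 3.26e-05, limma). For such dim genes the size depends on the added 16, which makes it smaller than the ratio of intensities. The Kcna5 value ranged from -1.75 to -0.67 over 15 alternatives while the call held.

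Kcna1, Kcna5 and Kcna6 are neighbours on rat chromosome 4 in the GRCr8 annotation of RefSeq, with no protein-coding gene between Kcna5 and Kcna1 or between Kcna1 and Kcna6. The middle gene of the row was thus highest in hippocampus and the genes on its sides were lowest there. Kcna2, the gene of Kv1.2 and a usual partner of Kv1.1, showed no call between regions, with handled means of 981 ± 18.5 in amygdala, 978 ± 24.9 in hippocampus and 1058 ± 80.1 in cortex. Kcna4, which encodes the inactivating Kv1.4, gave 203 ± 39.4, 208 ± 64.1 and 189 ± 39.3 in the same order, within the spread of its arrays. Kcna3, next to Kcna2 on chromosome 2, was not tested, with no array above 38.8.

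The cytosolic Kv1 beta subunits, which bind the inner side of Kv1 channels and speed their inactivation or aid their transport, had 2 tested genes, both called higher in hippocampus than in the other regions, while Kcnab3 was not tested (mean 30.1). Of all tested probe sets 12.2% were called higher in hippocampus than in cortex, and 12.9% lower in amygdala than in hippocampus. Kcnab2 read 1500, 1313 and 1210 in hippocampus, 618, 544 and 587 in amygdala and 606, 632 and 587 in cortex. The hippocampal arrays stood apart from the others, which overlapped, and the difference from cortex was 1.11 ± 0.07 (adjusted p = 2.40e-11, limma). Kcnab1 read 1262, 1329 and 1276 in hippocampus, 849, 805 and 901 in amygdala and 874, 684 and 789 in cortex. Again only hippocampus was separate, by 0.72 ± 0.10 against cortex (adjusted p = 3.70e-06, limma), and a second probe set of Kcnab1 gave 0.62 ± 0.17.

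The Kv4 group, which carries the A-type current of dendrites, was divided by region. Kcnd2, the gene of Kv4.2, had intensities of 989, 1008 and 1149 in handled hippocampus, 622, 579 and 671 in amygdala and 621, 570 and 584 in cortex. Hippocampus was higher without overlap, by 0.81 ± 0.09 against cortex (adjusted p = 2.88e-07, limma), and its second probe set gave 0.82 ± 0.11. Kcnd3, the gene of Kv4.3, was lower in hippocampus, where it read 211, 228 and 213 against 320, 398 and 334 in amygdala and 282, 307 and 306 in cortex. The difference from cortex was -0.43 ± 0.10 (adjusted p = 0.00147, limma) and that between amygdala and hippocampus was 0.65 ± 0.10 (adjusted p = 1.40e-05, limma). Of its other tested probe sets, 1 gave 0.66 ± 0.09 between amygdala and hippocampus and the other -0.05 ± 0.26. Kcnd1, the gene of Kv4.1, was called higher in hippocampus than in cortex at 0.56 ± 0.16 (adjusted p = 0.0131, limma), a call lost without hippocampus handled array 2 (adjusted p = 0.0931).

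The calcium-binding KChIP subunits, which raise Kv4 surface levels and alter inactivation, did not share 1 regional pattern. Kcnip2 read 891, 884 and 922 in hippocampus, 468, 505 and 468 in amygdala and 262, 240 and 242 in cortex. The 3 regions formed 3 separate levels with no overlap, and all 3 contrasts were called. The difference of hippocampus from cortex was 1.79 ± 0.08 (adjusted p = 7.85e-14, limma), that of amygdala from cortex was 0.91 ± 0.08 (adjusted p = 4.70e-08, limma), and a second probe set gave 1.48 ± 0.16 and 0.32 ± 0.16. Kcnip1 was lower in hippocampus, at 133 ± 7.14 against 219 ± 14.1 in amygdala and 230 ± 13.8 in cortex (-0.73 ± 0.10 against cortex, adjusted p = 8.99e-06, limma). Kcnip3, which also encodes the transcriptional repressor DREAM, was highest in cortex, with 473, 427 and 394 against 267, 331 and 319 in amygdala and 309, 242 and 204 in hippocampus. Cortex lay above both without overlap (amygdala minus cortex -0.48 ± 0.12, adjusted p = 0.00871, hippocampus minus cortex -0.76 ± 0.12, adjusted p = 3.92e-05, limma), while amygdala and hippocampus overlapped. The call against amygdala was lost without amygdala handled array 1 or cortex handled array 1 (adjusted p up to 0.0651, limma). Kcnip4 was not called in any region contrast, with means of 658 ± 4.36 in amygdala, 664 ± 22.3 in hippocampus and 725 ± 53.2 in cortex.

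The DPP proteins are the other partners of Kv4 channels. Dpp10, from a list of 18 potassium partner genes of which 15 were tested, had intensities of 67.5, 69.7 and 69.4 in handled hippocampus, 457, 465 and 415 in amygdala and 561, 557 and 550 in cortex. Hippocampus was far below both, by -2.75 ± 0.11 against cortex (adjusted p = 8.08e-15, limma). Dpp6 went the opposite way, at 1200 ± 34.7 in hippocampus against 779 ± 20.5 in cortex (0.61 ± 0.05, adjusted p = 4.28e-09, limma). Among the 15 partner genes 7 were called higher and 4 lower in hippocampus than in cortex. Of all tested probe sets 12.2% were called higher and 13.6% lower in that contrast. Lgi1, which encodes a secreted protein tied to Kv1 complexes, was higher by 1.09 ± 0.08 (adjusted p = 5.78e-10, limma). Between amygdala and hippocampus 4 partner genes were called higher and 4 lower, against 15.5% and 12.9% of all tested probe sets. Between amygdala and cortex 3 were called higher and 0 lower, against 8.14% and 6.56% of all.

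Kv3 channels allow fast repolarisation, above all in fast-spiking interneurons. Kcnc2, the gene of Kv3.2, was highest in cortex, with 664, 614 and 660 there, 468, 489 and 480 in hippocampus and 399, 409 and 440 in amygdala. The 3 regions did not overlap, and cortex exceeded amygdala (amygdala minus cortex -0.62 ± 0.08, adjusted p = 3.73e-06, limma), while amygdala and hippocampus were not called apart (adjusted p = 0.0572, limma). Of the 4 other Kcnc2 probe sets tested, 3 had the same sign between amygdala and cortex, 1 of them past the threshold. The summed level of interneuron markers had another order, 5197 to 5308 in amygdala, 4404 to 4668 in cortex and 2849 to 3005 in hippocampus, with 3 of 7 markers called higher and 2 lower in amygdala than in cortex. Their part in the Kcnc2 difference was not tested. Kcnc1, the gene of Kv3.1, was not called, with means of 338 ± 38.9 in amygdala, 403 ± 30.3 in hippocampus and 342 ± 25.5 in cortex. Kcnc4 was called only between amygdala (239 ± 6.47) and hippocampus (181 ± 50.1), at 0.40 ± 0.13 (adjusted p = 0.0260, limma), and lost the call in 6 alternatives.

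Kv7 subunits form the M-current, which muscarinic receptors close. Kcnq5 read 1201, 1170 and 1297 in hippocampus, 952, 891 and 858 in cortex and 726, 730 and 701 in amygdala. These were 3 separate levels, with all 3 contrasts called (hippocampus minus cortex 0.43 ± 0.07, adjusted p = 5.09e-05, amygdala minus cortex -0.32 ± 0.07, adjusted p = 0.00332, limma). A second Kcnq5 probe set had the opposite sign in each contrast, with none called (-0.19 ± 0.36 for hippocampus minus cortex). Kcnq3 was called higher in hippocampus, at 99.2 ± 5.45 against 58.0 ± 13.4 in cortex and 66.5 ± 6.49 in amygdala, but its second probe set was called the opposite way between amygdala and hippocampus (0.77 ± 0.27, adjusted p = 0.0351, limma, against -0.48 ± 0.18). The direction of Kcnq3 therefore depends on which probe set is read. For the probe set of higher mean, the call between amygdala and hippocampus was lost in 9 of 15 alternatives. Its call against cortex was lost without cortex handled array 1 (adjusted p = 0.0553, limma).

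The 3 tested genes of the ether-a-go-go family, whose channels act near rest and in repolarisation, were called lower in hippocampus than in cortex. Of all tested probe sets 13.6% were called lower in that contrast. Kcnh3, the gene of Kv12.2, had 221, 213 and 155 in hippocampus against 278, 286 and 314 in cortex and 252, 289 and 311 in amygdala. Hippocampus lay below both without overlap (-0.55 ± 0.11 against cortex, adjusted p = 5.86e-04, limma). Kcnh2, the gene of the erg channel Kv11.1, was near the floor in hippocampus, at 9.27, 9.69 and 23.2, against 45.1, 49.6 and 48.5 in cortex (-1.11 ± 0.24, adjusted p = 0.00122, limma). That size ranged from -1.81 to -0.52 over 14 alternatives while the call held. Kcnh1, the gene of Kv10.1, was lower than cortex by a smaller step (197 ± 7.87 against 249 ± 11.3, -0.32 ± 0.10, adjusted p = 0.0174, limma) and not called against amygdala. Its call against cortex was lost without hippocampus handled array 3 or cortex handled array 1 (adjusted p up to 0.0731, limma).

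Silent subunits form no channel alone and change Kv2 channels when they join them. Kcng2 read 393, 336 and 320 in hippocampus, 141, 142 and 134 in amygdala and 124, 122 and 99.4 in cortex. Hippocampus was separate from both, by 1.48 ± 0.10 against cortex (adjusted p = 1.17e-10, limma), and a second probe set gave 1.09. Kcng3 was the reverse and dim, with 1.25, 19.3 and 25.2 in hippocampus against 55.2, 45.9 and 38.6 in cortex (-1.09 ± 0.24, adjusted p = 0.00152, limma). The size of that difference ranged from -2.15 to -0.49 over 14 alternatives while the call held. Kcns3 was low in amygdala alone, where it read 75.7, 49.3 and 67.2 against 169, 133 and 144 in cortex and 137, 108 and 136 in hippocampus. The difference of amygdala from cortex was -1.05 ± 0.14 (adjusted p = 1.40e-05, limma), and cortex and hippocampus were not called apart. Kcnv1 was highest in cortex, at 535 ± 14.0 against 347 ± 25.5 in amygdala and 371 ± 43.0 in hippocampus, and both differences from cortex were called.

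Calcium- and sodium-activated channel genes differed singly. Kcnt1, the gene of the sodium-activated channel Slack, read 58.7, 35.5 and 38.1 in hippocampus, 85.5, 86.1 and 91.8 in cortex and 124, 132 and 104 in amygdala. Hippocampus was lowest without overlap (-0.81 ± 0.15 against cortex, adjusted p = 2.39e-04, and amygdala minus hippocampus 1.19 ± 0.15, adjusted p = 1.69e-06, limma), while amygdala and cortex were not called apart. Kcnma1, the pore of the BK channel, was higher in hippocampus than in cortex, at 414 ± 32.9 against 298 ± 13.0 (0.45 ± 0.11, adjusted p = 0.00282, limma). Its neuronal beta subunit Kcnmb4 was instead highest in cortex, with 501, 687 and 507 against 377, 329 and 283 in amygdala and 470, 350 and 445 in hippocampus. All 3 contrasts of Kcnmb4 were called, but amygdala and hippocampus overlapped and that call was lost in 8 alternatives. The Kcnmb4 call between hippocampus and cortex was lost without hippocampus handled array 2 or cortex handled array 2 (adjusted p up to 0.147, limma). Kcnn1, the gene of SK1, was dim at group means of 22.6 to 46.9 and not called.

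Of the inward rectifiers, Kcnj6 encodes GIRK2, a channel opened by inhibitory G protein-coupled receptors. It read 703, 674 and 660 in hippocampus, 311, 299 and 286 in amygdala and 361, 350 and 302 in cortex. Hippocampus was apart from both (0.98 ± 0.08 against cortex, adjusted p = 6.57e-10, limma), and amygdala and cortex overlapped. Its 2 other tested probe sets gave 0.48 ± 0.19 and 0.76 ± 0.28, neither past the threshold. Kcnj3, the gene of its partner GIRK1, was called between amygdala and hippocampus only (90.1 ± 13.8 against 151 ± 40.5, -0.64 ± 0.17, adjusted p = 0.00697, limma), and Kcnj9, the gene of GIRK3, was not called. The Kcnj3 call was lost without hippocampus handled array 2 (adjusted p = 0.0655, limma).

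Kcnj16, the gene of Kir5.1, was the gene called higher in amygdala than in both other regions. It read 91.2, 96.4 and 120 in amygdala, 42.2, 66.6 and 51.4 in cortex and 24.4, 42.2 and 32.1 in hippocampus. Amygdala exceeded cortex by 0.78 ± 0.18 (adjusted p = 0.00496, limma) and hippocampus by 1.29 ± 0.18 (adjusted p = 8.89e-06, limma), with no overlap, and a second probe set gave 0.95 and 1.02. Its lower level in hippocampus than in cortex rested on less, since that call (-0.51 ± 0.18, adjusted p = 0.0453, limma) was lost in 9 of 15 alternatives within handled arrays (adjusted p up to 0.217), was not made in stress arrays (-0.25) and was -0.07 in the second probe set. Kir5.1 joins Kir4.1, a channel of astrocytes encoded by Kcnj10, which was not tested here, with no array above 41.2. Astrocyte markers summed to 22420 to 22870 in handled amygdala, 20580 to 21380 in hippocampus and 18020 to 19180 in cortex, and their part in the Kcnj16 difference was not tested. Kcnj4, the gene of Kir2.3, was lower in amygdala (90.8 ± 23.3) and hippocampus (103 ± 6.58) than in cortex (164 ± 10.3), by -0.78 ± 0.19 and -0.60 ± 0.19 (adjusted p = 0.00766 and 0.0248, limma). The call against amygdala was lost without amygdala handled array 3 (adjusted p = 0.0605), and that against hippocampus when hippocampus handled array 1 or 3 or cortex handled array 1 or 3 was left out (adjusted p up to 0.0806), while a second probe set was called in both contrasts (-0.64 ± 0.16 and -0.78 ± 0.16). Kcnj11, the pore of the ATP-sensitive channel, was called only between amygdala and cortex (-0.55 ± 0.18, adjusted p = 0.0487, limma) and lost that call in 9 alternatives.

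Of the 5 tested tandem-pore leak channels 2 were called lower in hippocampus than in cortex, where 13.6% of all tested probe sets were, and the other 3 were not called. Kcnk2, the gene of the stretch- and lipid-gated TREK1, read 47.9, 102 and 89.2 in hippocampus, 180, 176 and 178 in amygdala and 209, 213 and 221 in cortex. Hippocampus was lowest without overlap, by -1.32 ± 0.15 against cortex (adjusted p = 4.88e-07, limma). Kcnk1, the gene of TWIK1, was lower than cortex at 100 ± 19.2 against 158 ± 12.9 (-0.59 ± 0.15, adjusted p = 0.00534, limma). Kcnk13, the gene of THIK1, a channel of microglia, was called only as higher in amygdala (36.9 ± 14.0) than in hippocampus (15.8 ± 6.59), at 0.72 ± 0.24 (adjusted p = 0.0245, limma). It had the lowest mean of the tested genes, 32.1, lay below that level in hippocampus, and lost the call without hippocampus handled array 3 (adjusted p = 0.118). Microglial markers summed to 1175 to 1223 in handled amygdala and 770 to 808 in hippocampus, and their part in this was not tested. Kcnk3 and Kcnk4 were not called in any region contrast.

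**Figure D2:**
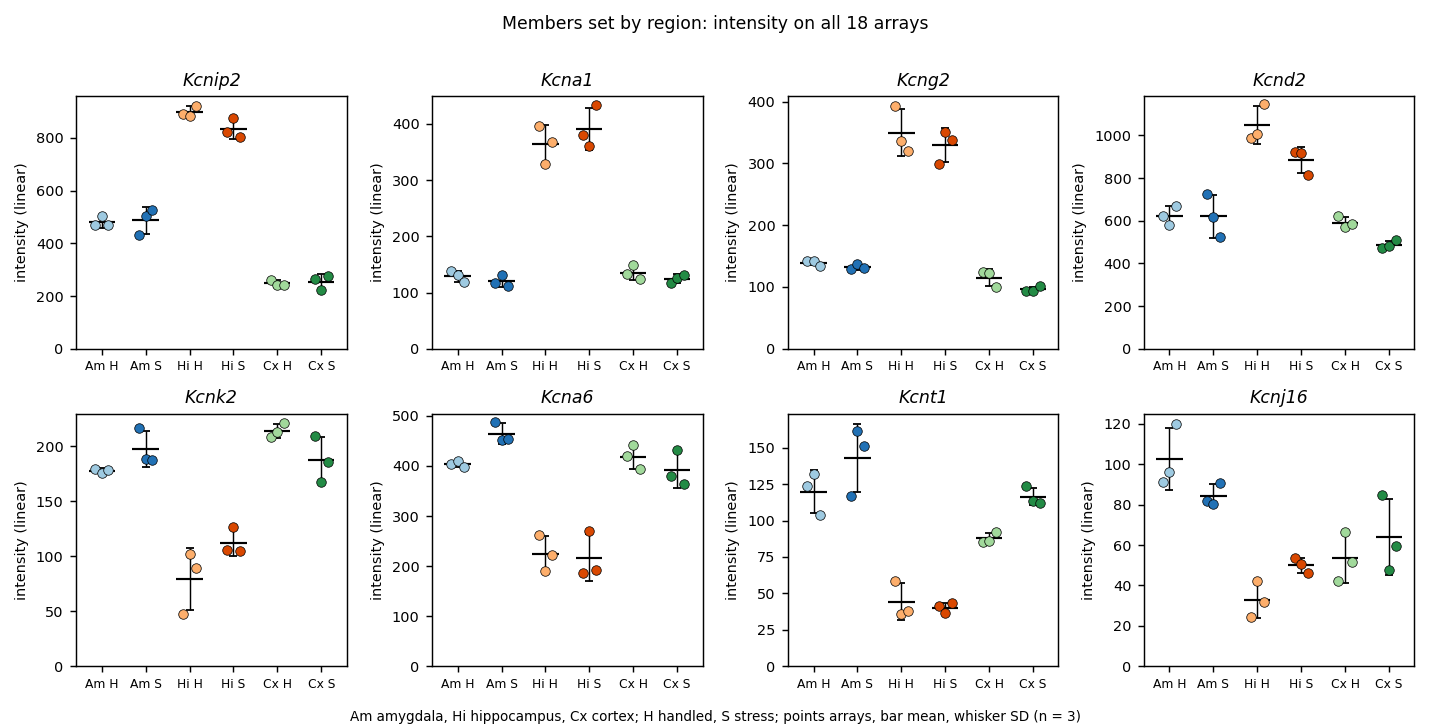
Linear intensity of 8 potassium channel genes on all 18 arrays, with points for arrays and bars for the mean ± SD of each group of 3. In the upper row the hippocampus is highest, as for Kcnip2 at 899 in handled arrays against 248 in cortex, and in the lower row it is lowest, as for Kcna6 at 225 against 418.

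The stress arrays hold the same regions in a separate set of arrays. Both sets were fitted in the same model with a shared spread per probe set, so recurrence is not an independent test. The share of calls that recur over all tested probe sets was not computed. There 23 of the 28 calls between hippocampus and cortex were called with the same sign (82.1% of the handled calls and 92.0% of the 25 calls in stress arrays). Between amygdala and hippocampus 22 of 24 calls recurred (91.7% of the handled calls and 78.6% of the 28 in stress arrays), and between amygdala and cortex 6 of 10 (60% and 46.2% of 13). Every handled call in the 3 contrasts kept its sign in the stress arrays. Kcna1 differed between hippocampus and cortex by 1.53 ± 0.10 in stress arrays, Kcnip2 by 1.66 ± 0.08, Kcng2 by 1.62 ± 0.10 and Kcna5 by -1.76 ± 0.20. The 4 that did not recur between amygdala and cortex were Kcnj4, Kcnj11, Kcnj16 and Kcnip3, and Kcnj16 fell short there at 0.35 ± 0.18.

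**Figure D3:**
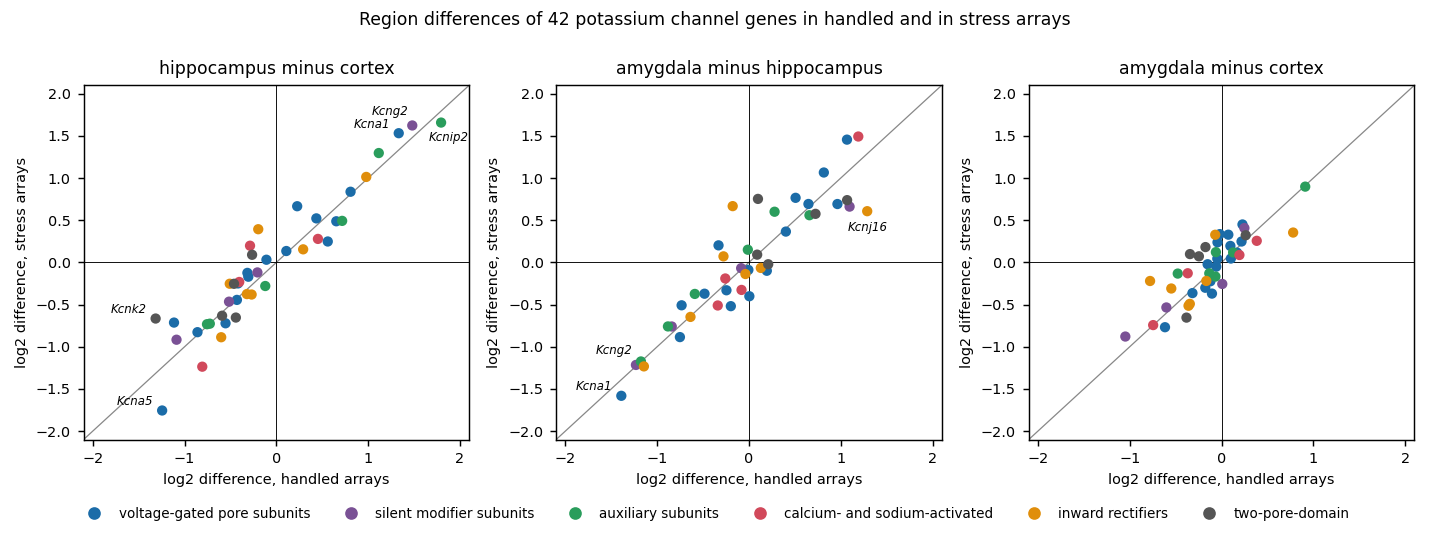
Log2 difference of the 42 tested genes between regions in handled arrays (horizontal axis) and in stress arrays (vertical axis), 1 panel per pair of regions, coloured by channel class, with the line of equality. Kcna1 and Kcnip2 lie at 1.33 and 1.79 in handled arrays and at 1.53 and 1.66 in stress arrays for hippocampus minus cortex.

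Promoters of 52 of the 75 genes were found in a RefSeq table of the GRCr8 build, which gives 300 bases around a gene's start, and Kcna1 is not among them. For genes with several listed starts only the first was used, so other starts of a gene may differ from the window described. The promoters of 4 genes are printed in lower case, with each GGGCGG (a GC box), or its reverse complement, in capitals. Kcnip2 and Kcna6 are examples of opposite regional patterns, not the extremes of each set. Kcna2 and Kcnj6 are the genes called under stress, Kcnj6 only in the average over regions. Kcnip2 lies at chr1:254613849-254614148 on the minus strand, Kcna6 at chr4:161262303-161262602 on the minus strand, Kcna2 at chr2:197393280-197393579 on the plus strand and Kcnj6 at chr11:47778299-47778598 on the minus strand.
Kcnip2: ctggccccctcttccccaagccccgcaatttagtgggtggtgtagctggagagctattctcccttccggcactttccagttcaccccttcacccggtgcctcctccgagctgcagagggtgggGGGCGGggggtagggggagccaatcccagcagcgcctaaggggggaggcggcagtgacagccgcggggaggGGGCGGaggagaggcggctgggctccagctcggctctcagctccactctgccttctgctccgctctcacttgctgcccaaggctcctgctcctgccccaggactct
Kcna6: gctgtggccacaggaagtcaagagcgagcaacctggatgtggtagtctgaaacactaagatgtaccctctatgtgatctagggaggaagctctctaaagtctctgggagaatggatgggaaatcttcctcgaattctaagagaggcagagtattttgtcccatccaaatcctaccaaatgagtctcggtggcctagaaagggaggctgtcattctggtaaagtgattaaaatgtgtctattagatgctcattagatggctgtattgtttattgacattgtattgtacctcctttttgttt
Kcna2: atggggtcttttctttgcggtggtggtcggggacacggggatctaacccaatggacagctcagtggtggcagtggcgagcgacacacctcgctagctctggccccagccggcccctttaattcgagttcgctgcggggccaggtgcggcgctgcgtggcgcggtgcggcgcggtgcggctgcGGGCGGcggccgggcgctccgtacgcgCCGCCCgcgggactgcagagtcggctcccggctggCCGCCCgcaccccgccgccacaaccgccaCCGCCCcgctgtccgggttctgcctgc
Kcnj6: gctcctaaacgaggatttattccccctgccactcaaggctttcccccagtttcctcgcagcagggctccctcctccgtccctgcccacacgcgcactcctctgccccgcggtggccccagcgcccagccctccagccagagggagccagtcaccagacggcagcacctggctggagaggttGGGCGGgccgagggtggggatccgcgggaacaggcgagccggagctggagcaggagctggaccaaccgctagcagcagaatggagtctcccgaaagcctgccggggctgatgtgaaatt

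The Kcna6 window is 43.0% GC with 3 CpG and holds no GGGCGG, whereas that of Kcnip2 is 67.7% GC with 13 CpG and 2 GGGCGG, that of Kcna2 73.3% with 40 and 4, and that of Kcnj6 66.7% with 18 and 1. Read on both strands, GGGCGG was present in 30 of the 52 promoters (57.7%) against 34.9% of all 27457. The median GC content was 62.0% against 52.3%, and the median number of CpG 16.5 against 7. Among the 9 genes highest in hippocampus, 7 had a promoter here, with a median of 23 CpG (range 9 to 35) and GGGCGG in 4. Among the 10 lowest, 8 had a promoter, with a median of 8.5 CpG (range 3 to 48) and GGGCGG in 3. TGTTCT, an element of glucocorticoid receptor binding sites, was present in 6 of 52 (11.5%) against 20.1% of all, in none of the 4 printed. TGACGTCA, the cAMP response element, was present in 0 of 52 against 1.91%, and TATAAA, the TATA box, in Kcnj1 and Kcnj13 only (3.85% against 14.3%). These are matches of letters within the window and say nothing of binding.

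Under stress, 1 of the 42 genes was called in amygdala (2.38%), against 2.40% of all tested probe sets (1.94% lower). This was Kcna2. Its intensity was 971, 970 and 1002 in handled amygdala and 785, 802 and 688 after stress. All stress arrays lay below all handled arrays. The mean went from 981 ± 18.5 to 758 ± 61.2, a log2 change of -0.37 ± 0.07 (adjusted p = 0.00231, limma). The call held in all 16 alternatives tried, including the omission of each array, with adjusted p from 0.00156 to 0.0419. The other Kcna2 probe set was too dim to be tested.

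In hippocampus Kcna2 read 954, 978 and 1003 in handled arrays and 970, 1046 and 998 after stress, which overlap (0.04 ± 0.07, adjusted p = 0.884, limma). In cortex it read 1096, 1112 and 966 in handled arrays and 960, 1007 and 982 after stress, which also overlap (-0.10 ± 0.07, adjusted p = 0.650, limma). The stress change of amygdala minus that of hippocampus was -0.41 ± 0.09 (adjusted p = 0.139, limma), and minus that of cortex -0.27 ± 0.09 (adjusted p = 0.319, limma), so the change was not shown to differ between regions.

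Other measures moved between the same amygdala arrays. Markers of striatal projection neurons, a neighbouring cell type, were above 0 in stress minus handled for 7 of 7 genes, with 1 called, and summed to 1709 to 1875 in handled and 2056 to 2432 in stress arrays. The hexokinase control, read as the log2 difference of its 3′ and its 5′ probe set, was 0.903, 0.843 and 0.739 in handled and 1.190, 1.316 and 1.192 in stress amygdala arrays. Amygdala markers summed to 4818 to 4900 in handled and 5175 to 5519 in stress arrays. Of these 8 genes 4 were above 0 and 4 below, with 1 called higher. Sums of hippocampal and choroid plexus markers were also higher in stress arrays, without overlap. Microglial markers were lower, at 1175 to 1223 in handled and 1098 to 1170 in stress arrays. Sums of cortical, astrocyte, endothelial and mural, meningeal fibroblast and interneuron markers overlapped. The part of these measures in the Kcna2 change was not tested. Oligodendrocyte markers, relevant because Kv1.2 sits beside the nodes of myelinated axons, summed to 15670 to 16700 and 15270 to 16370. Over all 18 arrays, the tested genes with a pattern most like that of Kcna2 were Kcnc2 (Pearson r = 0.65), Kcns3 (r = 0.58) and Kcnmb4 (r = 0.49), a description over arrays that share their 6 groups.

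In hippocampus 0 of 42 genes were called under stress by limma, against 0.360% of all tested probe sets, and in cortex 0, against 0.403%. At an unadjusted p under 0.05 there were 11 of the 42 in hippocampus, 6 in cortex and 3 in amygdala, where 10.9%, 10.2% and 13.7% of all tested probe sets met that limit. The median log2 changes of the 42 genes were 0.08 in amygdala, 0.04 in hippocampus and 0.01 in cortex, and those of all tested probe sets were 0.01, 0.00 and 0.00.

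**Figure D4:**
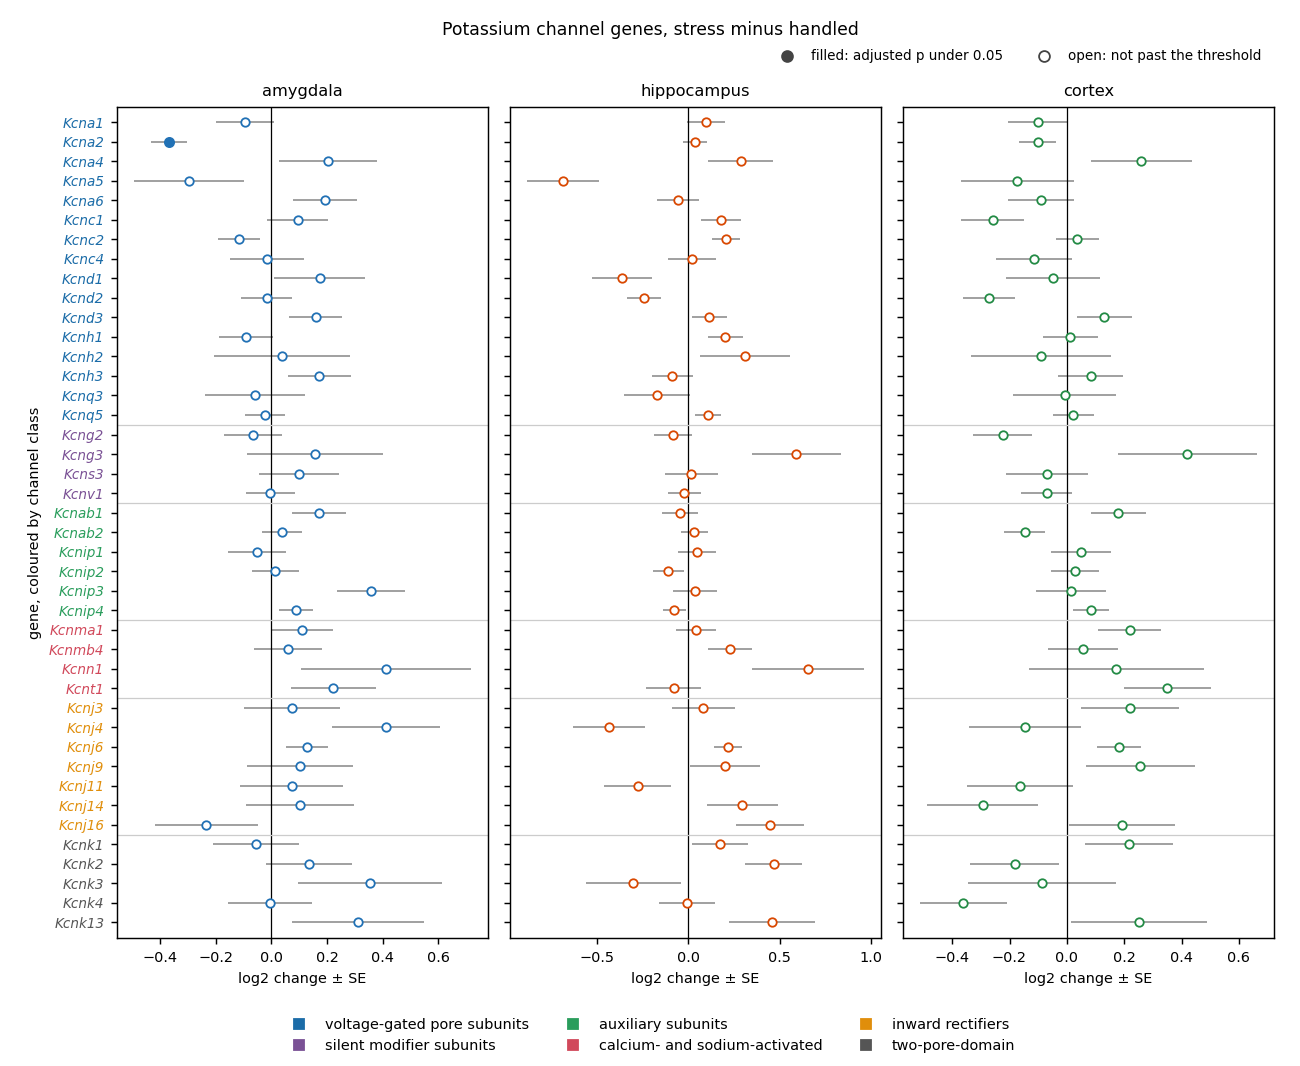
Log2 change ± SE from handled to stress of the 42 tested potassium channel genes in each region, with genes in rows coloured by channel class and filled points for adjusted p under 0.05. Kcna2 in amygdala, at -0.37, is the single filled point.

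Averaged over the 3 regions, 2 genes were called (4.76% of the 42, against 4.66% of all tested probe sets), an average that treats the regions as independent although the labels do not say whether they came from the same rats. Kcnj6 was higher after stress, by 0.18 ± 0.04 (adjusted p = 0.0202, limma). In hippocampus it read 703, 674 and 660 in handled and 827, 797 and 752 in stress arrays, without overlap. In cortex it read 361, 350 and 302 in handled and 368, 395 and 390 in stress arrays, also without overlap, and in amygdala 311, 299 and 286 against 348, 332 and 305, which overlap. The regional changes were 0.13, 0.22 and 0.18 in amygdala, hippocampus and cortex, with none called. The call was lost without the variance trend (adjusted p = 0.0511, limma), and the other 2 tested Kcnj6 probe sets gave 0.03 ± 0.11 and -0.49 ± 0.16, neither past the threshold. The hexokinase 3′ minus 5′ value was 0.83 ± 0.08 in handled and 1.23 ± 0.07 in stress arrays of amygdala, 1.02 ± 0.11 and 1.17 ± 0.15 in hippocampus and 1.11 ± 0.09 and 1.28 ± 0.12 in cortex, and its part in the averaged calls was not tested. Kcna2 was lower by -0.14 ± 0.04 (adjusted p = 0.0265, limma), which includes the amygdala change, and lost the call in 9 of 27 alternatives, with adjusted p up to 0.0915.

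Kcnd2, the gene of Kv4.2, did not pass the threshold as an average (-0.18 ± 0.05, adjusted p = 0.0568, limma). In cortex it read 621, 570 and 584 in handled and 472, 482 and 508 in stress arrays, and in hippocampus 989, 1008 and 1149 against 923, 916 and 813. The arrays did not overlap in either region, and the changes were -0.27 ± 0.09 (adjusted p = 0.266, limma) and -0.24 ± 0.09 (adjusted p = 0.324, limma). In amygdala the arrays overlapped, with means of 624 ± 45.8 and 621 ± 101. A second Kcnd2 probe set did not share this regional pattern, with -0.05 ± 0.11 in cortex, -0.08 ± 0.11 in hippocampus and -0.33 ± 0.11 in amygdala, none called, and -0.15 ± 0.06 as an average (adjusted p = 0.195, limma). In the same cortex arrays, meningeal fibroblast markers summed to 1399 to 1458 in handled and 533 to 603 in stress, and in the hippocampus arrays choroid plexus markers summed to 1216 to 1355 and 3529 to 3736. Their part in these values was not tested.

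Kcna5 gave -0.38 ± 0.11 as an average (adjusted p = 0.0539, limma) and -0.68 ± 0.20 in hippocampus (adjusted p = 0.157, limma), where it read 21.7, 25.1 and 15.1 in handled and 9.39, 1.89 and 9.61 in stress arrays. Those values do not overlap but lie near the floor of the array. Kcnip3 in amygdala read 267, 331 and 319 in handled and 454, 362 and 375 in stress arrays, without overlap (0.36 ± 0.12, adjusted p = 0.150, limma). The other tested Kcnip3 probe set had the opposite sign there, -0.46 ± 0.23 (adjusted p = 0.389, limma). The log2 changes in amygdala, hippocampus and cortex were 0.11, 0.04 and 0.22 for Kcnma1, -0.02, 0.11 and 0.02 for Kcnq5 and 0.01, -0.11 and 0.03 for Kcnip2, none of them called.

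**Figure D5:**
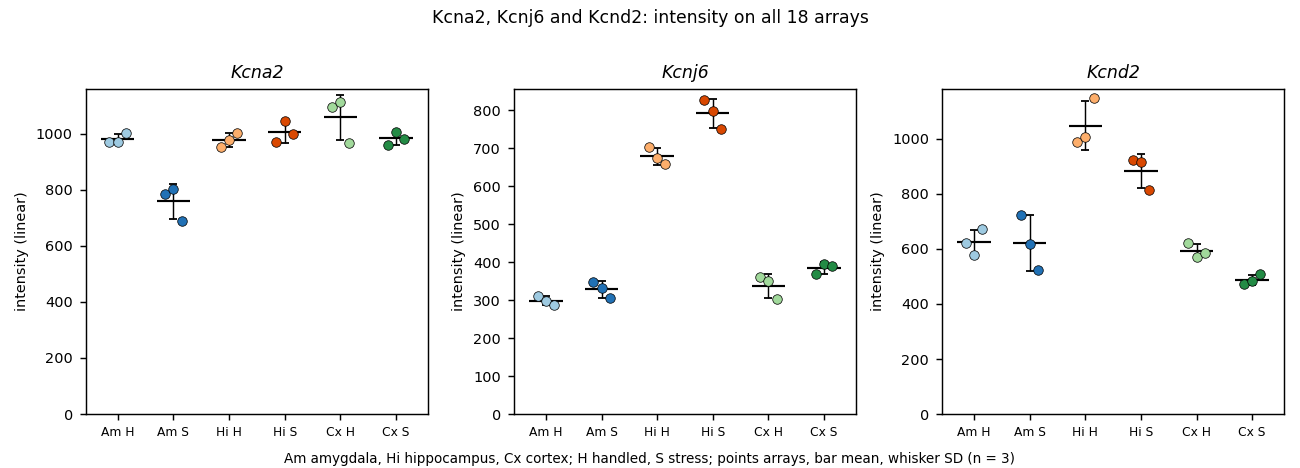
Linear intensity of Kcna2, Kcnj6 and Kcnd2 on all 18 arrays, with points for arrays and bars for the mean ± SD of each group of 3. The Kcna2 stress arrays of amygdala lie between 688 and 802, below the handled arrays at 970 to 1002.

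The stress effect was also compared between regions. None of the 42 genes was called by limma for amygdala minus hippocampus, amygdala minus cortex or hippocampus minus cortex, against 0.0483%, 0.129% and 0.0859% of all tested probe sets. At an unadjusted p under 0.05 there were 6, 2 and 3 of the 42, where 8.06%, 9.76% and 5.63% of all met that limit. The difference farthest from 0 among them was that of Kcnj4 between amygdala and hippocampus, 0.84 ± 0.28 (adjusted p = 0.380, limma), with changes of 0.41 in amygdala and -0.43 in hippocampus. A second Kcnj4 probe set differed from it in hippocampus, with 0.55 ± 0.16 in amygdala, 0.26 ± 0.16 in hippocampus and 0.30 ± 0.23 for the difference, none called. That probe set was called higher under stress as an average over regions (0.36 ± 0.09, adjusted p = 0.0236, limma), where the Kcnj4 probe set of higher mean gave -0.06 ± 0.11.

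Among the 15 tested partner genes 0 were called under stress in any region by limma. Of all tested probe sets 2.40% were called in amygdala, 0.360% in hippocampus and 0.403% in cortex. In the average 3 were called, all higher, where 4.66% of all tested probe sets were called in either direction. They included Adam22, a receptor of the Lgi1 protein (0.21 ± 0.05, adjusted p = 0.0169, limma), and Amigo1, an auxiliary subunit of Kv2 channels (0.19 ± 0.05, adjusted p = 0.0411, limma). Cntnap2, which gathers Kv1 channels beside the nodes of axons, was called as well (0.15 ± 0.04, adjusted p = 0.0430, limma).

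The 33 genes that were not tested had mean intensities of 3.44 to 31.3 and no single value above 77.9. They include Kcnb2 of the Kv2 channels (mean 11.7), Kcnn3, the gene of SK3 (27.96), Kcnk9, the gene of TASK3 (18.8), and Kcnj10 (20.9). Kcnj13, an inward rectifier of choroid plexus, had a mean of 14.6 and no array above 36.3, with hippocampal means of 20.2 in handled and 13.7 in stress arrays. A low value of a probe set does not show that the transcript is absent.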

How the data were processed

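Per the labels, total RNA of rat amygdala, hippocampus and cortex was hybridised to 18 Affymetrix arrays, 3 per group. The deposited values are linear intensities of probe sets, scaled by the authors to a common trimmed mean, as the values show. The summarising software is not given in the sources used here, detection calls and scan dates were not used, and no batch could be tested. The number of arrays limits the precision. Probe sets were named from the platform annotation, and all 75 symbols matched RefSeq. Control probe sets (57) were left out.

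Group means were fitted over 18 arrays with limma 3.58.1 in R 4.3.3 on log2(intensity + 16), above the 40th percentile of mean level, with a variance trend, 12 residual and 10.2 prior degrees of freedom. Two-sided p-values were adjusted after Benjamini and Hochberg over 18625 probe sets (threshold 0.05). An exact permutation of 3 against 3 arrays cannot go below 0.1, so none was used. On simulated data for stress in amygdala, with 18625 probe sets and 200 changed by 1 log2 unit, the fit recovered 172 with their sign and made 10 false calls. That change is larger than the stress changes given here, and the simulated noise was independent between probe sets. The simulation thus does not give the recovery at the sizes seen under stress, or false calls from effects shared by an array. The potassium channel genes and all lists were chosen with earlier results of these data known.

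Named genes were those called under stress, up to 10 per direction called between regions without overlap, the member of highest mean in each class, and a list of well-known channel genes. Others are given where a count or a comparison turned on them and were chosen after their values were seen. Alternatives were the offset, the filter, scaling, the variance trend, array weights, a replicate block, fits on the regions compared alone, and each array left out. Repeating the region contrasts in stress arrays was added after seeing the data.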

Additional observations from a re-analysis of the deposited data

How the results depend on the processing

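No call on a potassium channel gene changed sign under any alternative. The count of calls under stress in cortex was 0 and became 1, Kcnd2, with array weights and 1, again Kcnd2, with only cortex arrays. Array weights also raised the calls of all tested probe sets, from 75 to 621 in cortex and from 868 to 1126 averaged over regions. Median centring lowered the latter to 802. For the stress effect averaged over regions the count was 2 and became 1 with median centring, 3 at the 60th percentile filter (Kcnd2 added), 4 with array weights and 1 without the variance trend, where Kcnj6 and Kcna2 were both lost and the call was Kcna5. It ranged from 1 to 4 when arrays were left out. The Kcna2 call in amygdala was kept in all 16 alternatives. Between amygdala and cortex 7 of 10 calls were kept in every alternative in which the gene was tested. The same held for 22 of 28 calls between hippocampus and cortex and 19 of 24 between amygdala and hippocampus. Among the kept region calls, those of Kcna5 and Kcnj16 were tested in 15 alternatives and those of Kcnh2 and Kcng3 in 14. The other kept region calls were tested in 16. Same-numbered handled and stress arrays of a region did not deviate together (correlations of -0.032 to 0.005), nor did same-numbered arrays of different regions within a treatment (-0.044 to 0.10), so the numbers were not taken to pair arrays. With the replicate block the Kcna2 call stayed at 1 of 42 in amygdala. The calls of all tested probe sets there went from 447 to 421. The region counts were 9, 27 and 23 for amygdala minus cortex, hippocampus minus cortex and amygdala minus hippocampus. Of all tested probe sets 2705, 4769 and 5240 were called in those contrasts with the block and 2738, 4815 and 5289 without it. Signal over background limits the report too, since 33 of 75 genes lay under the filter and dim genes have compressed log2 differences.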
